A study of Rattus norvegicus with 18 samples.

Results

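The genes described here are 10 transcripts of the lysosome: the cathepsins Ctsb, Ctsd, Ctss, Ctsz, Ctsl, Ctsh and Ctsc, and the lysosomal membrane proteins Lamp1, Lamp2 and Laptm5. They were taken by symbol from a table of 17455 gene symbols, and 10 of 10 were present and passed the filter on low counts that left 13338 genes for testing. RNA came from left hippocampi of Sprague-Dawley rats (adult males), collected a day after the last seizure in 2 models of acquired temporal lobe epilepsy. The groups were kainic acid (KA) 3 Class V (n = 3), KA sham (n = 7), kindling (KI) 3 Class V (n = 4) and KI sham (n = 4). KA rats had electrodes implanted and then received systemic kainic acid in rising amounts until status epilepticus, and KI rats were stimulated repeatedly through hippocampal electrodes until fully kindled. What "3 Class V" counts and what the shams received are not spelled out in the labels. The rats carried no engineered allele, and each model had its own shams.

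Lysosomes degrade proteins, lipids and glycans delivered by endocytosis, phagocytosis and autophagy. Cathepsins are their main proteases: most are cysteine proteases, whereas cathepsin D is an aspartic protease. Lamp1 and Lamp2 are heavily glycosylated proteins that line the lysosomal membrane, and Laptm5 is a membrane-spanning lysosomal protein of blood-derived and microglial cells. All brain cells contain lysosomes, but microglia, the resident phagocytes of the brain, are rich in several cathepsins. The transcription factor Tfeb binds a palindrome with the core CACGTG in promoters of many lysosomal genes, and the microglial and myeloid factor Spi1 (PU.1) binds purine-rich sites such as GAGGAAGT.

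Promoter sequence was available from RefSeq (build GRCr8, not the build of the counts) for 9 of the 10 genes; Ctsb is named only. The 250 bases before the start of each gene were searched on both strands for CACGTG, its longer form TCACGTGA, which contains CACGTG, and GAGGAAGT. CACGTG occurred in 5.59% of 33469 promoters of the same length, and in Lamp1 and Ctsd among the 9. Lamp1 held 5 matches, and it was the only promoter of all those searched with 5 or more. TCACGTGA occurred in 0.657% of promoters, with 2 matches in Lamp1 and 1 in Ctsd. GAGGAAGT occurred in 2.04% of promoters, and in Ctss and Ctsc among the 9. The 3 promoters below show the genes with the most CACGTG matches and the cathepsin whose GAGGAAGT match lies closest to the start, with the matches in capitals (in Ctss the match is on the opposite strand and reads as its reverse complement).
Lamp1: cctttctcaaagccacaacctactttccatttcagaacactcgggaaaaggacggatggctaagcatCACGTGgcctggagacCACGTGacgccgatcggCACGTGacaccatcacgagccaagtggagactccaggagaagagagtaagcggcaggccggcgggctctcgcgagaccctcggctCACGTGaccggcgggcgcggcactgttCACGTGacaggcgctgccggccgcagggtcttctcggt
Ctsd: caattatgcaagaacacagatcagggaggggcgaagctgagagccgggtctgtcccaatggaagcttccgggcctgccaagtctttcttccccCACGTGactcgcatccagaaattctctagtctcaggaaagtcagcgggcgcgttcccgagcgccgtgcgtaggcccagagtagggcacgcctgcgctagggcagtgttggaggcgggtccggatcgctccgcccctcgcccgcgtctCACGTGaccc
Ctss: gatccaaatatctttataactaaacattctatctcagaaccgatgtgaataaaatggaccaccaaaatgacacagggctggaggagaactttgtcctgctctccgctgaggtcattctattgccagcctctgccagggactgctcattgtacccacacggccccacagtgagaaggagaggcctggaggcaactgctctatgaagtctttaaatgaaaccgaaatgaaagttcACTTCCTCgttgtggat
These windows lie on chromosome 16 (83075064 to 83075313, minus strand) for Lamp1, on chromosome 1 (206968822 to 206969071, minus strand) for Ctsd and on chromosome 2 (185775146 to 185775395, plus strand) for Ctss. A match is a string of letters in the window and was not tested for binding.

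Total counts ran from 30925368 to 49943021 per library. Genes resembling ribosomal RNA were abundant in 3 libraries: 16.3% of counts for KI 3 Class V 1, 16.4% for KI sham 2 and 9.67% for KA sham 4. The remaining 15 held 0.571% to 2.0%. The choroid plexus transcript Ttr was at 572 CPM (counts scaled to library size, with TMM factors) in KA sham 3 and 887 CPM in KI sham 4, against 4.13 to 63.8 CPM elsewhere. KI shams 3 and 4 had 373 and 249 CPM of Spp1, a marker of activated phagocytes. The 9 neuron markers, among them Snap25 and Slc17a7, summed to at least 4039 CPM in every library.

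The 10 genes were higher in KA 3 Class V than in KA sham and lower in KI 3 Class V than in KI sham, as point estimates, in 10 of 10 cases in each model. Of all genes tested, 48% had a positive estimate in KA and 53.2% a negative one in KI. Over all genes tested, 21.7% had this pair of signs. In KA none of the 10 passed the threshold of 0.05 on the adjusted p, whereas in KI 7 fell, and for 7 the KA change exceeded the KI change. KI 3 Class V had the lowest group mean for all 10 genes, and its libraries lay below every KA 3 Class V library for 10 of 10, where 16.5% of all genes tested did so. KI 3 Class V libraries had the smallest coefficient of variation of the 4 groups for 8 of the 10 genes, whereas KI shams had the smallest for Ctsl and Lamp1. Over the 10 genes it ran from 2.87% to 7.87% in KI 3 Class V, against 9.08% to 27.6% in KA 3 Class V, 12.6% to 48.1% in KA sham and 3.85% to 61.8% in KI sham. Together the 10 genes took 0.322% to 0.406% of counts in KA 3 Class V, 0.191% to 0.303% in KA sham, 0.169% to 0.213% in KI 3 Class V and 0.246% to 0.386% in KI sham. In bulk tissue, fewer cells of a type and less RNA per cell cannot be told apart.

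**Figure D1:**
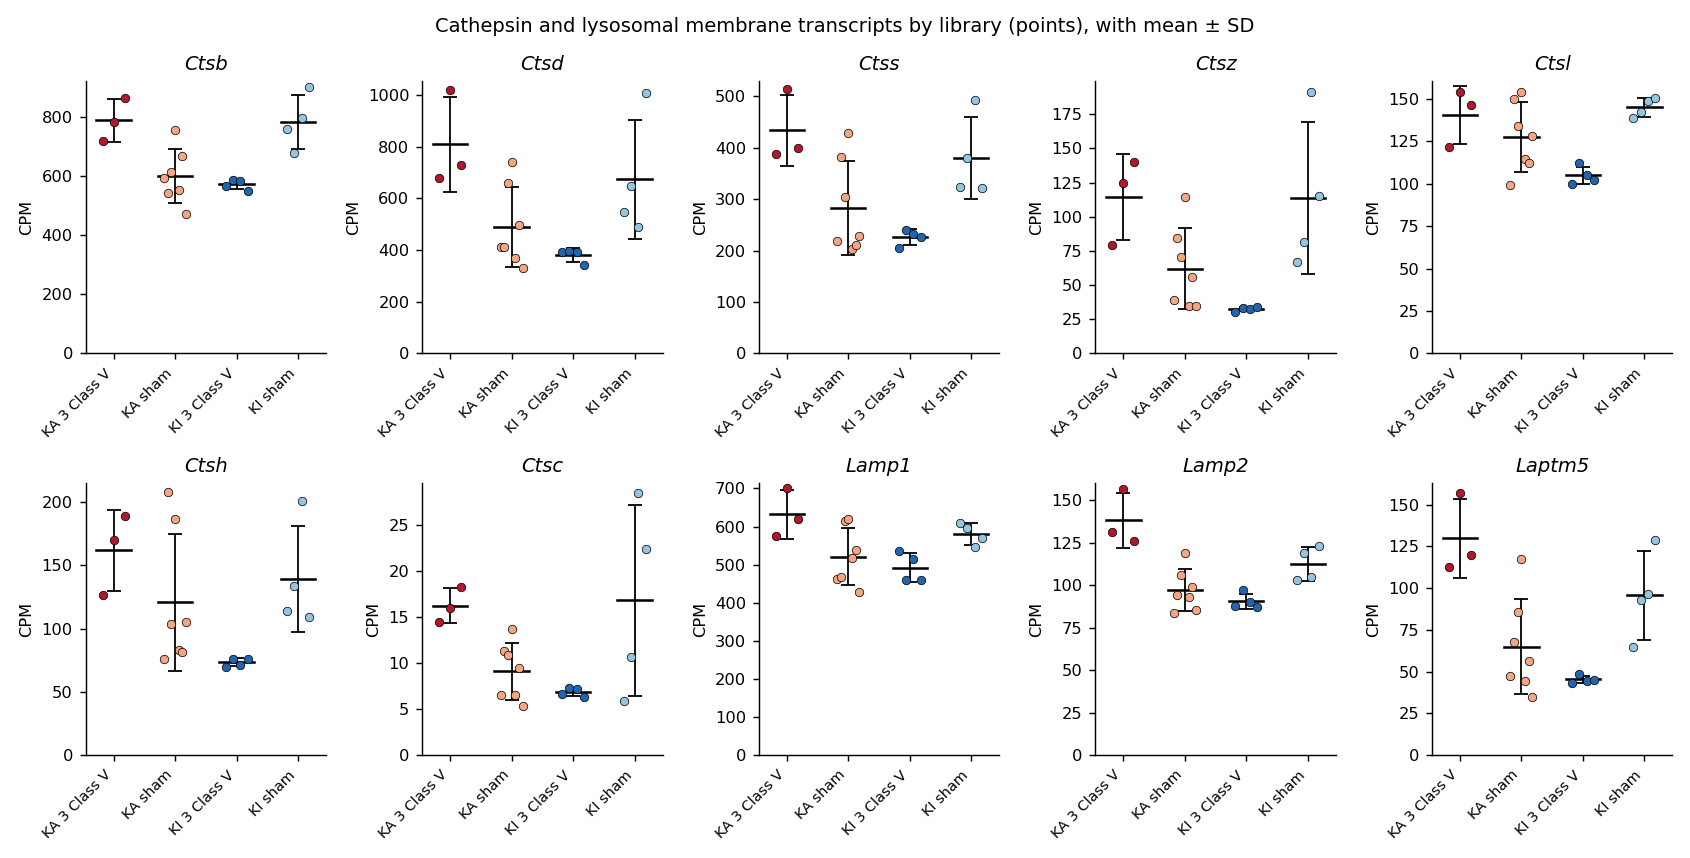
CPM of each of the 10 genes (y axis, starting at 0) in the 18 libraries, 1 point per library, with mean ± SD by group (KA 3 Class V, KA sham, KI 3 Class V, KI sham). The KI 3 Class V points form a tight low cluster, for example 30.5 to 33.7 CPM for Ctsz, whereas KI sham points for Ctsz spread over 67.0 to 191 CPM.

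Among the membrane proteins, Laptm5 differed most in both models. It stood at 113, 157 and 120 CPM in KA 3 Class V libraries, against 35.1, 56.4 and 118 CPM as the lowest, median and highest of the KA shams. It stood at 43.2, 48.5, 44.7 and 44.8 CPM in KI 3 Class V libraries, against 64.5, 92.6, 96.4 and 129 CPM in KI shams. KA sham 4 alone among KA shams reached the KA 3 Class V range, and in KI the groups did not overlap. The log2 fold change was 1.0 ± 0.28 (SE) in KA (edgeR adjusted p = 0.145), and Laptm5 fell by 1.08 ± 0.30 on the log2 scale in KI (edgeR adjusted p = 0.0381).

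Lamp2, whose A isoform serves chaperone-mediated autophagy, was at 131, 157 and 126 CPM in KA 3 Class V libraries, against 83.5, 94.1 and 119 CPM as the lowest, median and highest KA sham. It was at 87.8, 97.1, 90.1 and 87.3 CPM in KI 3 Class V libraries, against 103, 119, 105 and 123 CPM in KI shams. The groups did not overlap in either model. The changes were nevertheless not called, at 0.51 ± 0.11 in KA (edgeR adjusted p = 0.0738) and -0.31 ± 0.12 in KI (edgeR adjusted p = 0.0767). Lamp1, the gene with 5 CACGTG matches, averaged 632 ± 64.0 CPM in KA 3 Class V and 521 ± 75.3 CPM in KA sham (SD, n = 3 and 7), and 492 ± 38.7 CPM in KI 3 Class V and 580.5 ± 27.7 CPM in KI sham (SD, n = 4 each). Its log2 fold changes were 0.28 ± 0.12 in KA and -0.24 ± 0.12 in KI, and neither passed (edgeR adjusted p = 0.423 and 0.174).

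Ctsz, a lysosomal carboxypeptidase, had the largest estimated fall of the 10 genes in KI. It was at 79.0, 125 and 140 CPM in KA 3 Class V libraries, against 34.6, 56.2 and 114 CPM as the lowest, median and highest KA sham. It was at 30.5, 33.2, 32.2 and 33.7 CPM in KI 3 Class V libraries, against 67.0, 81.5, 191 and 115 CPM in KI shams. KA shams 2 and 4 reached the KA 3 Class V range, and the KI groups did not overlap. Ctsz fell by 1.81 ± 0.38 on the log2 scale in KI (edgeR adjusted p = 0.0225), and its change in KA was 0.88 ± 0.34 (edgeR adjusted p = 0.348). Without KI shams 3 and 4 its KI change was -1.22 and was still called, the only one of the 10 for which that held.

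Ctss, an endopeptidase that stays active at neutral pH and trims the invariant chain of class II major histocompatibility molecules, was at 388, 513 and 398 CPM in KA 3 Class V libraries, against 203, 228 and 427 CPM as the lowest, median and highest KA sham. It was at 205, 240, 232 and 227 CPM in KI 3 Class V libraries, against 323, 379, 491 and 322 CPM in KI shams. KA sham 4 overlapped KA 3 Class V, and the KI groups were apart. Ctss fell by 0.75 ± 0.23 in KI (edgeR adjusted p = 0.0467), with 0.62 ± 0.21 in KA (edgeR adjusted p = 0.266).

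Ctsc, the dipeptidyl peptidase that activates serine proteases of immune cells, had the widest relative spread of the 10 among KI shams, with a coefficient of variation of 61.8%. It was at 14.5, 16 and 18.3 CPM in KA 3 Class V libraries, all above the KA shams, whose lowest, median and highest values were 5.31, 9.48 and 13.7 CPM. It was at 6.61, 7.34, 7.21 and 6.33 CPM in KI 3 Class V libraries, against 5.84, 10.6, 28.5 and 22.4 CPM in KI shams. KI sham 1 thus lay below every KI 3 Class V library, and Ctsc was the only one of the 10 whose KI groups overlapped. Ctsc fell by 1.30 ± 0.37 in KI (edgeR adjusted p = 0.0418), but its change was -0.29 and not called without KI shams 3 and 4, and in KA it was 0.83 ± 0.35 (edgeR adjusted p = 0.390). Ctsh, an aminopeptidase, averaged 162 ± 31.8 CPM in KA 3 Class V and 121 ± 54.0 CPM in KA sham, with log2 fold change 0.42 ± 0.28 (edgeR adjusted p = 0.650). It averaged 73.5 ± 3.10 CPM in KI 3 Class V and 139 ± 42.2 CPM in KI sham, with log2 fold change -0.92 ± 0.30 (edgeR adjusted p = 0.0549).

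Of the proteases found in most cell types, Ctsd, the main aspartic protease, was at 677, 1019 and 729 CPM in KA 3 Class V libraries, against 331, 413 and 741 CPM as the lowest, median and highest KA sham. It was at 394, 395, 390 and 342 CPM in KI 3 Class V libraries, against 547, 648, 491 and 1005 CPM in KI shams. KA sham 4 was the only KA sham within the KA 3 Class V range, and the KI groups did not overlap. Ctsd fell by 0.82 ± 0.25 in KI (edgeR adjusted p = 0.0492), with 0.72 ± 0.24 in KA (edgeR adjusted p = 0.244). Ctsb, a cysteine protease that cuts both within chains and from their ends, was at 721, 784 and 864 CPM in KA 3 Class V libraries, against 474, 596 and 758 CPM as the lowest, median and highest KA sham. It was at 569, 588, 584 and 551 CPM in KI 3 Class V libraries, against 760, 680, 797 and 902 CPM in KI shams. Again KA sham 4 alone overlapped, and the KI groups were apart. Ctsb fell by 0.45 ± 0.13 in KI (edgeR adjusted p = 0.0422), with 0.39 ± 0.13 in KA (edgeR adjusted p = 0.214). The endopeptidase Ctsl averaged 141 ± 17 CPM in KA 3 Class V and 128 ± 20.3 CPM in KA sham, the smallest KA change at 0.14 ± 0.12 (edgeR adjusted p = 0.743). Ctsl fell by 0.47 ± 0.13 in KI (edgeR adjusted p = 0.0381), averaging 105 ± 5.2 CPM in KI 3 Class V and 145 ± 5.58 CPM in KI sham.

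For KA, 0 of 10 genes were called by edgeR, where 0.172% of all genes tested were, and the median log2 fold change was 0.56 beside -0.01 for all genes tested. At an unadjusted p under 0.05, 8 of 10 were higher, against 6.34% of all genes. DESeq2 called 2 (Lamp2 and Laptm5) and limma-voom 4 (these and Ctsb and Ctss). Over all genes in KA, DESeq2 called 255 and limma-voom 725, in either direction. In 2 of 10, Ctsc and Lamp2, every KA 3 Class V library was above every KA sham, as in 2.95% of all genes. Without KA sham 4, edgeR called Lamp2 and Laptm5, and without KI sham 1 it called Lamp2.

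For KI, 7 of 10 genes fell and 0 rose, where 5.25% of all genes tested fell and 4.74% rose. The median log2 fold change was -0.78, against -0.04 for all genes. In 9 of 10 every KI 3 Class V library lay below every KI sham, as in 8.07% of all genes. The count of 7 became 0 when KI 3 Class V 1, 2 or 3 or KI sham 3 was left out, 1 without KI 3 Class V 4, 2 without KI sham 2, and 4 without KA 3 Class V 1, KA 3 Class V 2 or KA sham 3. It was also 0 without the 3 libraries rich in ribosomal RNA-like genes, where the median stayed at -0.78, and 1 without KI shams 3 and 4, where the median was -0.55. With a ribosomal protein score in the fit it was 0 and the median was -0.49; that score averaged -0.38 ± 0.13 in KI 3 Class V and 0.25 ± 0.44 in KI sham (SD, n = 4 each), and its part in the result was not tested. All 10 estimates stayed below 0 in each of these fits.

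**Figure D2:**
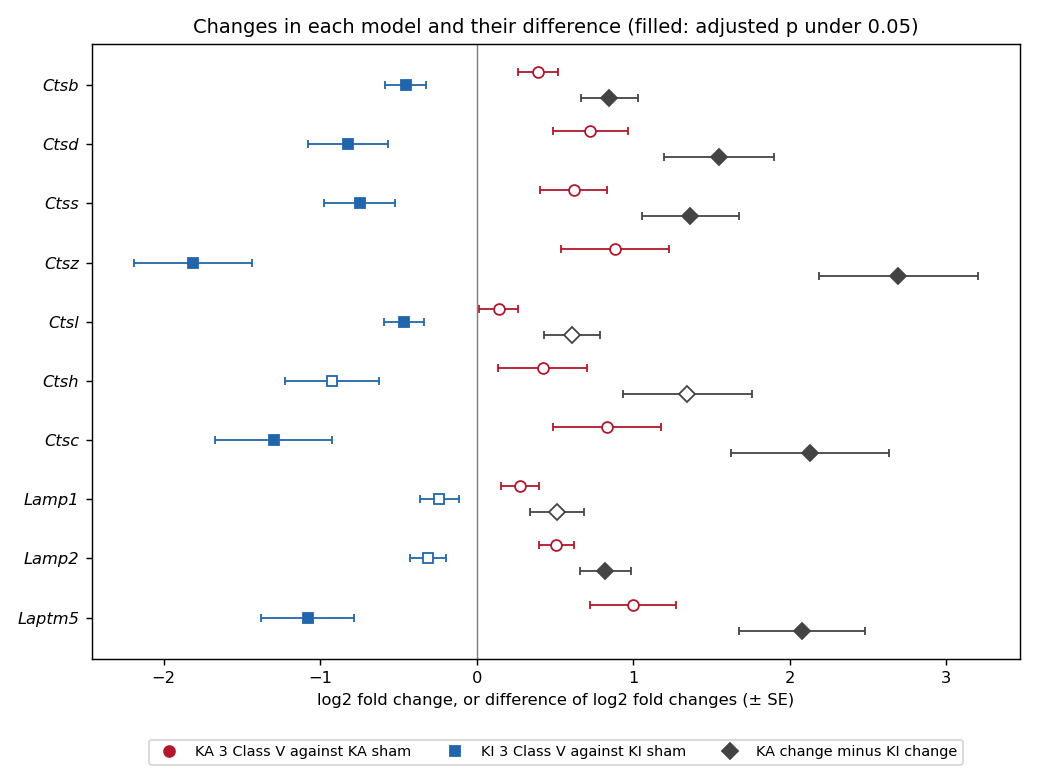
Log2 fold change of 3 Class V over sham in KA (circles) and KI (squares), and the KA change minus the KI change (diamonds), with SE bars; filled symbols have edgeR adjusted p under 0.05. Every KA estimate lies right of 0 and every KI estimate left of it, and 7 diamonds are filled.

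The difference between the models, the KA change minus the KI change, was tested as 1 contrast of the same fit. It passed for 7 of 10 genes, all higher, where 3.15% of all genes tested were higher. The differences were 2.69 ± 0.51 for Ctsz (edgeR adjusted p = 0.0139), 2.08 ± 0.41 for Laptm5 (edgeR adjusted p = 0.0148) and 0.82 ± 0.16 for Lamp2 (edgeR adjusted p = 0.0153). Ctsb followed at 0.85 ± 0.18 (edgeR adjusted p = 0.0192), Ctsd at 1.55 ± 0.35 (edgeR adjusted p = 0.0236), Ctss at 1.37 ± 0.31 (edgeR adjusted p = 0.0243) and Ctsc at 2.13 ± 0.51 (edgeR adjusted p = 0.0294). Ctsl (0.61 ± 0.18), Ctsh (1.35 ± 0.41) and Lamp1 (0.52 ± 0.17) did not pass, with edgeR adjusted p of 0.0656, 0.0761 and 0.105. Lamp2 and Laptm5 stayed called whichever of the 18 libraries was left out. The count of 7 became 2 without KA 3 Class V 3, 3 without KI 3 Class V 1, and 4 without KA 3 Class V 2 or KI 3 Class V 3.

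**Figure D3:**
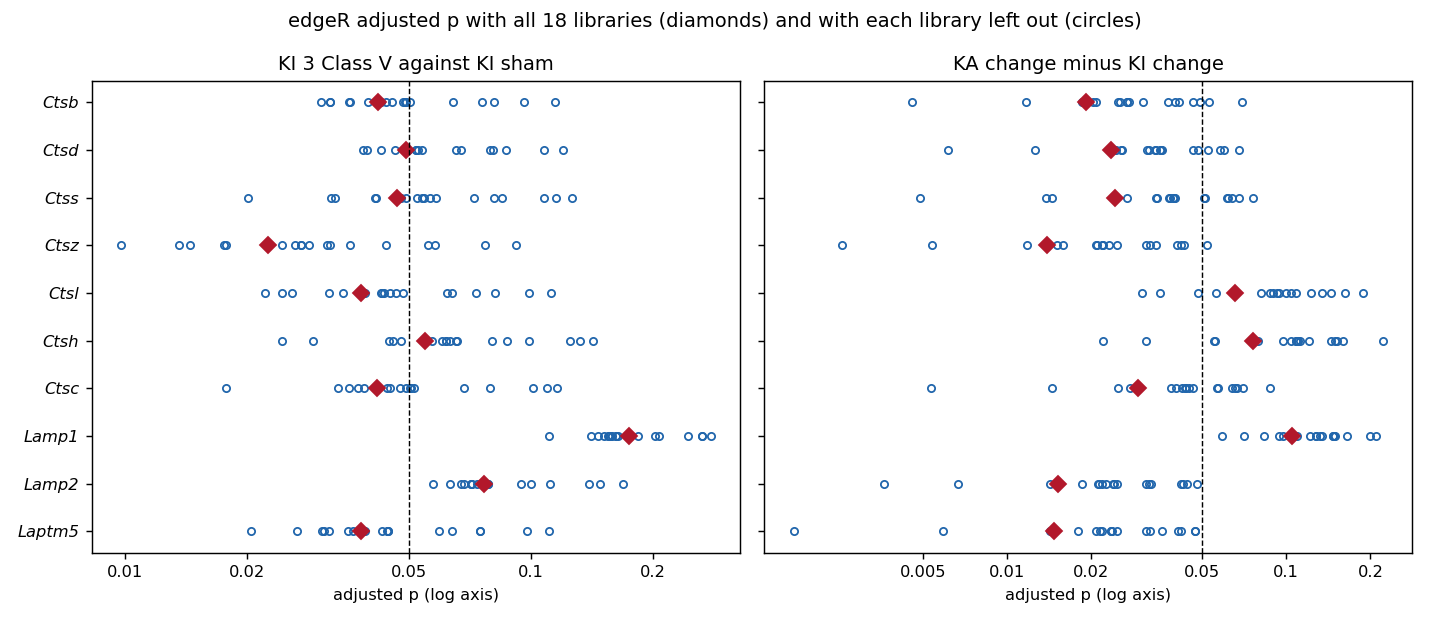
edgeR adjusted p (log axis) of each gene for KI 3 Class V against KI sham (left) and for the KA change minus the KI change (right), with all 18 libraries (diamonds) and with each library left out (circles); the dashed line is 0.05. On the right, the circles of Lamp2 and Laptm5 stay left of the line, whereas on the left every gene has circles on the right of it.

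The difference between models contains the difference between their shams. KA shams had lower estimates than KI shams for 10 of 10 genes, where 52.6% of all genes tested did. The log2 fold changes ran from -0.89 (Ctsc) and -0.87 (Ctsz) to -0.16, with a median of -0.40 beside -0.01 for all genes. None was called (edgeR adjusted p from 0.564 to 0.781), where 0.0075% of all genes tested were; 5 were lower at an unadjusted p under 0.05, against 4.58% of all genes, and DESeq2 and limma-voom called 0 of 10. The sham groups overlapped for all 10 genes; of all genes tested, KA sham lay wholly above KI sham for 0.48% and wholly below for 0.18%. The mean of KA 3 Class V was above that of KI sham for 8 of 10 genes, but the libraries overlapped for 9. KA 3 Class V lay wholly above KI sham for 1 of 10 (Lamp2), as against 3.61% of all genes tested.

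The 10 genes varied together from library to library to differing degrees. Over the 18 libraries, after subtraction of each group's mean log2 CPM, Pearson's r between pairs ran from 0.095 (Ctsh and Lamp1) to 0.900 (Ctss and Ctsh), with a median of 0.597 over 45 pairs. These points share libraries and their depth, and the values are descriptions. No r over pairs of other genes is given beside them. KA sham 4 had the highest value of its group for 9 of the 10. The genes whose group-centred pattern was most like a member's were Hcls1 for Ctsz (r = 0.989), B2m for Ctsh (0.983), Il10rb for Ctsc (0.977), Tgfb1 for Laptm5 (0.966), Arhgdib for Ctss (0.932), Nkapd1 for Ctsl (0.917), Ptgs1 for Ctsd (0.902) and Lamp2 (0.878), Il6r for Ctsb (0.871) and Clca1 for Lamp1 (0.830), out of 11410 genes searched over 18 libraries. Spi1, named above for its binding site, was the gene next most like Ctsz (r = 0.972). The Ctsz promoter window held 0 matches to GAGGAAGT, and a link between Spi1 and Ctsz was not tested.

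Microglia markers varied with these genes. Their summed level, over 11 genes such as Tmem119, Aif1 and C1qa and with 0 at a count of 0, ran from 1088 to 1563 CPM in KA 3 Class V, 535 to 1449 CPM in KA sham, 545 to 578 CPM in KI 3 Class V and 747 to 1806 CPM in KI sham. Of the 11, 0 were called in KA by edgeR, 5 at an unadjusted p under 0.05, 1 by DESeq2 and 3 by limma-voom (median log2 fold change 0.53); 5 fell in KI (median -0.90) and 6 passed for the difference, where 5.25% and 3.15% of all genes tested did so. The count of 6 was 0 without KA 3 Class V 3, 1 without KI 3 Class V 1 or 3, 2 without KA 3 Class V 2 or KI sham 3, and 3 without KI 3 Class V 2. All 9 markers of activated microglia and macrophages that were tested fell in KI (median -1.95), and 0 were called in KA by edgeR, 0 at an unadjusted p under 0.05, 0 by DESeq2 and 1 by limma-voom. In KI both marker counts were 0 without KI 3 Class V 1, 2 or 3 and 2 without KI 3 Class V 4. Without KI sham 3 they were 0 for the microglia markers and 1 for the activated markers. The microglia count in KI was 8 without KI sham 1, and the activated count was 4 without KI sham 2 and 5 without KA 3 Class V 2 or KA sham 3.

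A marker score was the mean log2 CPM of the list's markers after subtraction of group means, not their summed CPM. The group-centred r with the microglia score was 0.940 for Ctsz, 0.914 for Ctsc, 0.854 for Laptm5 and 0.786 for Ctss, but 0.545 for Ctsd and 0.349 for Lamp1. Without KA sham 4 and KI sham 1, the libraries farthest from the median score, r was 0.944 for Ctsz, 0.890 for Ctsc, 0.768 for Laptm5 and 0.750 for Ctss, but 0.366 for Ctsd and 0.298 for Lamp1; Lamp2 had 0.412 in place of 0.619 and Ctsb 0.433 in place of 0.556. Other marker lists gave values of similar size for some genes, such as 0.687 for Ctss with astrocyte markers and 0.542 for Ctsd with choroid plexus markers. For Ctsh, r was 0.765 with border macrophage and leukocyte markers and 0.740 with microglia markers. Neuron markers ran the other way in KI, with a summed level of 7870 to 9427 CPM in KI 3 Class V and 4039 to 6847 CPM in KI sham. Of these, 3 of 9 rose (Gad2, Syt1 and Slc17a7), where 4.74% of all genes tested rose. In KA the summed neuron marker level was 6204 to 6486 CPM in KA 3 Class V and 6574 to 8576 CPM in KA sham, with 0 of 9 called and 0 at an unadjusted p under 0.05. Astrocyte markers summed to 11874 to 14077 CPM in KA 3 Class V and 5695 to 10382 CPM in KA sham. In KA 1 of 8 was called (Gfap, higher), where 0.172% of all genes tested were called higher. The 8 markers had a median log2 fold change of 0.11 in KA, with 3 of 8 negative. In KI 1 of 8 was called, Aqp4, which rose by 0.61 ± 0.19 (edgeR adjusted p = 0.0486), and 4 of 8 estimates were negative. Oligodendrocyte markers summed to 9815 to 13805 CPM in KI 3 Class V and 15701 to 21054 CPM in KI sham. Of these 7 markers 2 fell, beside 5.25% of all genes tested. In KA they summed to 13602 to 14027 CPM in KA 3 Class V and 12388 to 34782 CPM in KA sham. All 7 KA estimates were negative (median -0.54), 5 at an unadjusted p under 0.05 and 0 called by edgeR. The share of all genes lower in KA at that unadjusted threshold is not given here. The part of these marker levels in the changes of the 10 genes was not tested.

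**Figure D4:**
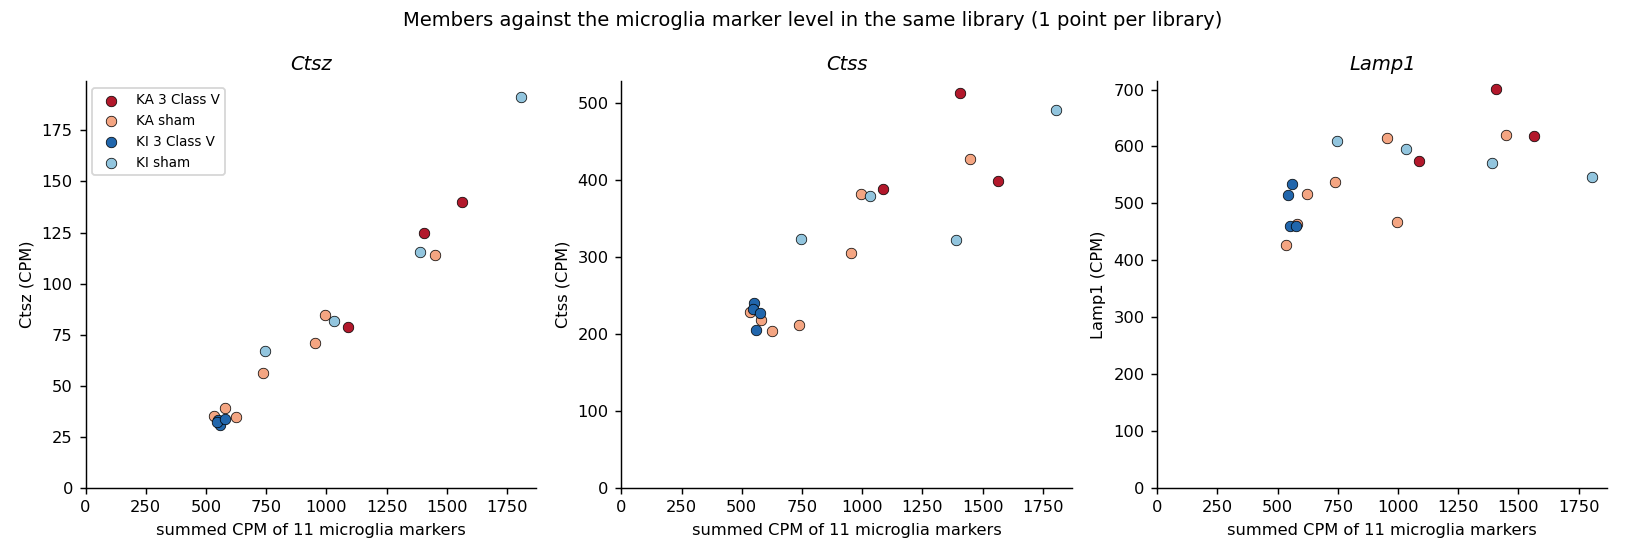
CPM of Ctsz, Ctss and Lamp1 (y axes) against the summed CPM of 11 microglia markers (x axis), 1 point per library, coloured by group. KI 3 Class V libraries sit together between 545 and 578 CPM of the markers, and Ctsz follows the markers more closely (group-centred r = 0.940) than Lamp1 does (0.349). These r values use the mean group-centred log2 CPM of the markers and were not computed from the plotted CPM.

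Other lysosomal genes differed by class. Among 30 other hydrolases and cofactors, 0 were called in KA by edgeR (12 at an unadjusted p under 0.05, 3 by DESeq2 and 8 by limma-voom) although all 30 estimates were positive (median 0.33). Of all genes tested, 6.34% were higher in KA at an unadjusted p under 0.05, and 48% had a positive estimate. In the hydrolase list 9 fell in KI (median -0.17) and 11 were higher in the difference (median 0.53). Of all genes tested, 5.25% and 3.15% did so. The count of 9 became 0 without KI 3 Class V 1, 2 or 3 and 1 without KI sham 3. The count of 11 became 4 without KA 3 Class V 3, 6 without KA 3 Class V 2, KI 3 Class V 1 or KI 3 Class V 3, and 7 without KI 3 Class V 2 or KI sham 3. Npc2, which carries cholesterol out of the lysosome lumen, had a log2 fold change of 0.90 ± 0.27 in KA (edgeR adjusted p = 0.172), fell by 1.19 ± 0.29 in KI (edgeR adjusted p = 0.0292) and differed by 2.09 ± 0.39 between the models (edgeR adjusted p = 0.0139). Lgmn, the asparaginyl endopeptidase that processes cathepsins, fell by 1.10 ± 0.26 in KI (edgeR adjusted p = 0.0284) and Acp5, an acid phosphatase of macrophages, by 1.23 ± 0.27 (edgeR adjusted p = 0.0268). Hexa, a subunit of beta-hexosaminidase, stood at 0.65 ± 0.14 in KA (edgeR adjusted p = 0.0659).

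Among 5 other cathepsins tested, 0 were called in either model by edgeR. At an unadjusted p under 0.05, 3 were higher in KA and 2 lower in KI. The share of all genes lower in KI at that threshold is not given here. DESeq2 called 1 in KA and 0 in KI, and limma-voom 2 and 3. Over all genes in either direction, limma-voom called 725 of 13338 in KA and 7355 in KI, and DESeq2 255 and 2915. Ctsa and Ctse were higher in the difference, by 0.68 ± 0.18 and 2.48 ± 0.54 (edgeR adjusted p = 0.0471 and 0.0203), where 3.15% of all genes tested were higher. Neither Ctsa nor Ctse passed without KA 3 Class V 2 or 3 or KI 3 Class V 1 or 3. In KA alone, Ctse had a log2 fold change of 1.52 ± 0.36 (edgeR adjusted p = 0.0934). Of 6 cathepsin inhibitors, Cst3 (cystatin C) fell by 1.01 ± 0.26 in KI (edgeR adjusted p = 0.0336), averaging 2397 ± 234 CPM in KI 3 Class V and 4811 ± 939 CPM in KI sham. Of 15 other lysosomal membrane proteins, Cd68 and Cd63 fell in KI, and the median of the list was 0.14. Cd68 (a macrophage marker) fell by 2.55 ± 0.66 (edgeR adjusted p = 0.0333), but its KI groups overlapped, whereas those of Cd63 did not. Among 20 subunits of the vacuolar ATPase, the proton pump that acidifies lysosomes, 2 rose in KI (Atp6v1a and Atp6ap2) and 2 fell (Tcirg1 and Atp6v0e1). Of all genes tested, 4.74% rose in KI and 5.25% fell. Of 10 genes of lysosomal sorting and transcription, Tfeb fell by 0.67 ± 0.15 in KI (edgeR adjusted p = 0.0256) and Grn (progranulin) by 1.05 ± 0.32 (edgeR adjusted p = 0.0468). None of these 5 lists had a gene called in KA by edgeR; besides the other cathepsins, limma-voom called 3 inhibitors, 2 membrane proteins, 0 subunits and 1 sorting or transcription gene there, and DESeq2 called 1, of the last list. In KI, none of these 5 lists had a gene called without KI 3 Class V 1, 2 or 3, and the Cst3 call was also lost without KI 3 Class V 4 or KI sham 1, 2 or 3. Without KI sham 4 the KI counts were higher, with 3 inhibitors, 7 membrane proteins, 8 subunits and 5 sorting or transcription genes called. At an unadjusted p under 0.05 in KA, 1 inhibitor was higher (Serpina3n) and 1 lower (Cst6), and 1 subunit was higher and 1 lower. Serpina3n had a log2 fold change of 3.14 ± 0.82 in KA (edgeR adjusted p = 0.118), and its KA groups overlapped. Cst6 stood at -0.70 ± 0.25 (edgeR adjusted p = 0.289). At an unadjusted p under 0.05, 1 membrane protein was lower in KA and 3 sorting or transcription genes were higher, where 6.34% of all genes tested were higher. The share of all genes lower in KA at that threshold is not given here.

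**Figure D5:**
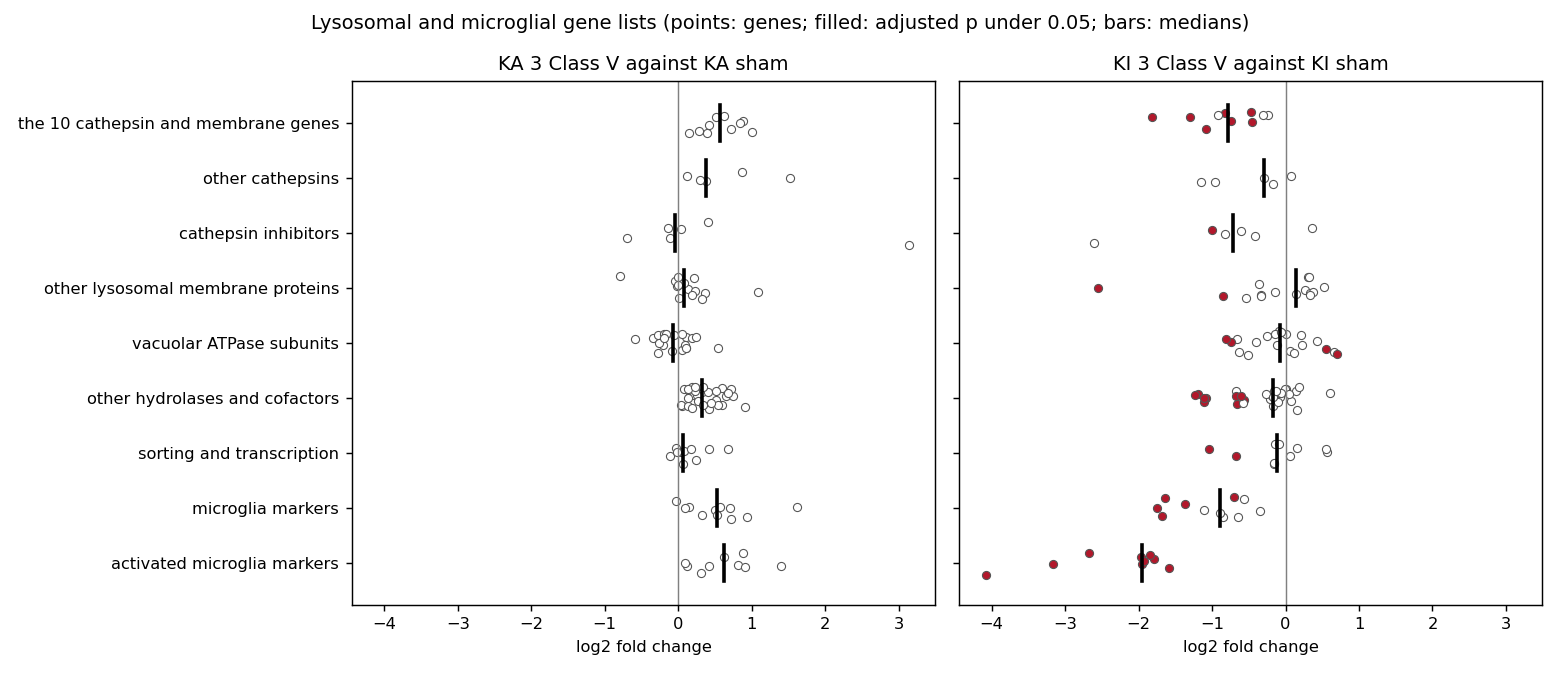
Log2 fold change (x axis) of each gene in 9 lists, in KA 3 Class V against KA sham (left) and KI 3 Class V against KI sham (right); filled points have edgeR adjusted p under 0.05 and bars are list medians. No point is filled on the left, and on the right the 10 genes (median -0.78) and the activated microglia markers (median -1.95) lie left of 0, while the membrane protein and vacuolar ATPase lists centre near it.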

How the data were processed

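Hippocampal polyadenylated RNA of 18 libraries was sequenced with single-end reads of 110 bases, per the labels' protocols. The deposited values are raw counts of reads per gene symbol, made by the authors with FastQC, Trimmomatic, HISAT2 and featureCounts on build rn6 and used with DESeq2, per the submitters' processing notes; versions, annotation and strand setting are not given in the sources used, so reads of overlapping genes cannot be told apart. Groups and replicate numbers came from the titles, and 0 columns were left unused. The labels do not say that each library is a separate animal; if not, p-values measure a partly technical spread. All 36 pairs of libraries within groups differed by more than counting noise, with a chi-square per degree of freedom of 19.8 to 582.8.

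Counts were tested in R 4.3.3 with edgeR 4.0.16 (TMM factors, filterByExpr, 4 group means, robust quasi-likelihood F test, 14 residual degrees of freedom), two-sided, with Benjamini-Hochberg adjustment over 13338 genes and a threshold of 0.05. SE was the absolute log2 fold change over the square root of F. Alternatives were DESeq2 1.42.0, limma-voom (limma 3.58.1), other scalings, filters and sample sets, and a mean ribosomal protein score as covariate. Scripts were tested on simulated data. Named genes were all 10 members, up to 3 genes per list and model with the smallest p, and genes most like a member (log2 CPM, prior count 2, mean of at least 1). Other list genes named were picked after their values were seen. The members and lists were chosen with earlier results of these data known.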

Additional observations from a re-analysis of the deposited data

Results flagged for a closer look

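In KI 3 Class V 4, Ctsd stood at 342 CPM, far from the nearest library of its group at 390 CPM; the gap was 0.913 of the group's range. It was the only such value among 30 gene and group combinations tested (groups of 4 or 7 libraries), and chance gives about 1 in 20.

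The KA change differed from the KI change by the interaction contrast for 7 genes, on the log2 scale: Ctsz by 2.69, Ctsc by 2.13, Laptm5 by 2.08, Ctsd by 1.55, Ctss by 1.37, Ctsb by 0.85 and Lamp2 by 0.82.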

How the results depend on the processing

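The count of the 10 genes called in KA (0) was 2 with DESeq2, 4 with limma-voom and 1 with the ribosomal protein score as covariate, and 0 to 2 with a library left out. In KI (7) it was 0 with that covariate, 0 without the 3 libraries rich in ribosomal RNA-like genes, 1 without KI shams 3 and 4, and 0 to 8 with a library left out; DESeq2 and limma-voom each called 9, and KI groups fitted alone gave 5. For the difference between models (7) the count was 10 with DESeq2 and with limma-voom, and 2 to 9 with a library left out. Between the shams it was 0 under every alternative. No estimate of the 10 genes changed sign in KA, in KI or in the difference under any alternative run. Between the shams, Ctsh was 0.020 without KI sham 3 (from -0.39 to 0.020 with a library left out) and 0.0025 with the replicate block. For the shams that block used the replicate number alone, shared between the models. Ctsc was 0.12 between the shams without KI shams 3 and 4. In KI, Ctsw, another cathepsin, was 0.53 without KI sham 3 (from -1.49 to 0.53 with a library left out) and 1.01 without KI shams 3 and 4. The causes were not tested. Over all genes and in either direction, edgeR called 23 in KA and 1332 in KI, DESeq2 255 and 2915, and limma-voom 725 and 7355. For the difference between models, edgeR called 507 of all genes, DESeq2 1113 and limma-voom 4770.

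Correlations of deviations between same-numbered libraries ran from -0.15 to 0.01 in KA and from -0.17 to -0.068 in KI. Between libraries of different numbers they ran from -0.24 to 0.32 in KA and from -0.066 to 0.14 in KI. In KI the same-numbered values were thus the lowest. These correlations cannot show whether the numbers mark pairs or a shared batch. With the replicate block the counts were 0 in KA, 0 in KI and 0 for the difference. For these comparisons the block gave each replicate number within a model its own term, which left fewer residual degrees of freedom than the 14 of the main fit. The higher-numbered KA shams had no KA 3 Class V library of the same number. Counts of 0 in this fit therefore cannot tell a lack of change from a lack of power. Counting error was small beside the spread between libraries (chi-square per degree of freedom of at least 19.8), so the number of libraries, 3 to 7 per group, limits the precision.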
